A study of Mus musculus with 12 samples.

Results

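The Ly49 receptors are a family of lectin-like surface receptors, and 10 of their genes (Klra1, Klra2, Klra3, Klra4, Klra5, Klra6, Klra7, Klra8, Klra9 and Klra17) were followed here through the single-cell RNA-seq data of MC38 tumors. The genes were chosen by name from the gene rows of the count table. They were 10 of 11 rows with a Klra symbol and 10 of 27457 gene rows in all, and the row left out was Klra10. MC38 is a colon carcinoma cell line of C57BL/6J (B6) origin. The cells were injected under the skin of female mice that were 8 to 12 weeks old. The hosts were B6 mice and CCF1 mice, each the offspring of a mother from an inbred Collaborative Cross (CC) strain and a B6 father, so every host carried a B6 copy of the Ly49 genes and each CCF1 host also carried the copy of its CC strain. Tumors of 75 to 110 mm3 were treated with a single injection of 200 µg of an antibody to PD-1 (aPD1) or of its isotype control, and were taken 48 h later. Each strain gave as many isotype as aPD1 tumors, 6 tumors in B6, 8 in CC001 F1, 6 in CC002 F1, 4 in CC007 F1 and 6 each in CC036 F1, CC075 F1, CC079 F1 and CC080 F1. CC001, CC002 and CC075 F1 were responder strains and CC036, CC079 and CC080 F1 non-responder strains, classes that the study took from tumor growth in other animals, and B6 and CC007 F1 were in neither class.

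Natural killer (NK) cells use Ly49 receptors to read class I major histocompatibility complex (MHC) molecules on other cells. Inhibitory members carry a signaling motif that recruits phosphatases, activating members lack it and signal through the adaptor DAP12 (Tyrobp), and each NK cell expresses its own combination of members. The gene cluster differs between mouse strains in which members it holds and in their sequence.

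In the GRCm38 annotation (GENCODE vM21) all members lay on the minus strand of chromosome 6. The order along the chromosome was Klra17 (chr6:129831154-129876672), Klra5 (chr6:129898996-129917650), Klra6 (chr6:130013033-130026954), Klra4 (chr6:130043731-130067271), Klra8 (chr6:130115226-130129898), Klra9 (chr6:130178675-130193112), Klra7 (chr6:130218605-130233322), Klra3 (chr6:130323289-130337574), Klra1 (chr6:130363917-130386874) and, apart from the rest, Klra2 (chr6:131219223-131247362). All 10 members had a promoter in the RefSeq table of GRCm38.p6, running from 250 bases before to 50 bases after the start of a transcript. The promoters of Klra8, Klra9 and Klra3 are shown because these genes had UMIs in macrophages of some strains. That of Klra1, a gene of lymphoid cells, is shown as the only member without GAGGAA on either strand. Capitals mark matches of GAGGAA or its reverse complement TTCCTC, the core letters of PU.1-type sites, and of TGTGGT or its reverse complement ACCACA, those of RUNX-type sites.
Klra8, chr6:130129849-130130148, minus strand: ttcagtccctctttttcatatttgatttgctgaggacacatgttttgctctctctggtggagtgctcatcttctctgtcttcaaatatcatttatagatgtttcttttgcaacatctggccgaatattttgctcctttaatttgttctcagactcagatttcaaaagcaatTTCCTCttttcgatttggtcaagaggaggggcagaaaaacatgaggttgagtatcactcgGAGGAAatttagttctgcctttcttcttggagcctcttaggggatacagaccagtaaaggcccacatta
Klra9, chr6:130193063-130193362, minus strand: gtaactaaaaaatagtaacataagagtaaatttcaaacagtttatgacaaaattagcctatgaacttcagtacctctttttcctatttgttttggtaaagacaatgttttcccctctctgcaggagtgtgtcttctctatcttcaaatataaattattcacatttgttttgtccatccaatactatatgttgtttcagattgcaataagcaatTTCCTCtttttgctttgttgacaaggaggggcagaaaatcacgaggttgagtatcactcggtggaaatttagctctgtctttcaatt
Klra3, chr6:130337577-130337876, minus strand: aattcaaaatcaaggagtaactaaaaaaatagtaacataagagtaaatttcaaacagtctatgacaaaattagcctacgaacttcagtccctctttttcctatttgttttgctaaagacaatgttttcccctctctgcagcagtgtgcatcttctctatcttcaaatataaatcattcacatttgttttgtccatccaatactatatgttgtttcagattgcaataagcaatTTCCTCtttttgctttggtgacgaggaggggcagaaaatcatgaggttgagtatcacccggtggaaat
Klra1, chr6:130386825-130387124, minus strand: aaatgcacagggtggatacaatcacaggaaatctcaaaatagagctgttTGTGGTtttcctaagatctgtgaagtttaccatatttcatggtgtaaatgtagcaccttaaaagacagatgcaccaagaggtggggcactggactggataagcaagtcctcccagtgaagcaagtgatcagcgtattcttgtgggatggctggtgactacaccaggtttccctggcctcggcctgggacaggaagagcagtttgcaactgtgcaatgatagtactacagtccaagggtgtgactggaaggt

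GAGGAA on either strand was in the promoters of 9 of the 10 members, Klra1 being the exception, and in 28.3% of 32851 mouse promoters of the same length. Klra5, Klra6 and Klra7, also genes of lymphoid cells, were among the 9. TGTGGT on either strand was in Klra1 alone among the members and in 16.8% of all promoters. These matches describe letters in a window and no binding was measured. The promoters of Klra3 and Klra9 were identical at 95.4% of 284 aligned bases, those of Klra4 and Klra8 at 86.6% of 299 and those of Klra8 and Klra9 at 75.4% of 260. The promoter of Klra1 aligned with those of the other members over only 5 to 65 bases.

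Sequence likeness also limits what each count can be called. Among windows of 90 bases in the first 500 bases of a member's transcripts, 59.4% of those of Klra9, 42.7% of those of Klra3, 17.03% of those of Klra8 and 15.8% of those of Klra6 lay within 3 mismatches of another Klra gene, and 38.4% of those of Klra8 were shared exactly with the pseudogene Klra14-ps. No such window was found in Klra1, Klra2, Klra7 or Klra17. Reads were aligned to the B6 genome, so a transcript from a CC copy of the locus could be counted only under the B6 symbol it matched best. The values of Klra3, Klra6, Klra8 and Klra9 are uncertain as to which member they stand for. The windows compared genes of the B6 genome with each other, so they do not show how transcripts of a CC copy were counted. That limit holds for every member, also for those without such a window.

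The data held 93126 cells from 48 tumors, with 53 to 3082 cells and 88816 to 17713491 UMIs (counted transcript molecules) per tumor and a median of 3333.5 UMIs per cell. Libraries were 12 pools of 4 tumors each, and 4990 of 87940 cell barcodes occurred in more than 1 library. Levels are given as CPM, the UMIs of a gene for every 1000000 UMIs of the same cells. CPM was not divided by transcript length, so levels are compared between cells for 1 gene and not between genes. The authors' 27 clusters were used as deposited. Among these cells were 68059 macrophages, 12021 T and NK cells (T/NK cells) and 1614 cells of cluster 24. Cluster 24 matched its NK marker list, with Ncr1 at 452 CPM, Klrb1c at 304, Gzma at 1891 and the T cell gene Cd3e at 19.3. Fewer cells of a kind and less RNA per cell could not be told apart wherever clusters were summed.

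The 10 members gave 99661 UMIs in all, and 85.0% of them came from Klra2. The family split into genes of lymphoid and of myeloid cells. T/NK cells held 98.1% of the UMIs of Klra7, 96.9% of those of Klra1, 95.6% of those of Klra5 and 87.1% of those of Klra6. Macrophages held 94.4% of the UMIs of Klra2 and 53.4% of those of Klra17. Klra8 and Klra9 were shared between both, with 64.2% and 68.8% of their UMIs in T/NK cells and 32.2% and 27.99% in macrophages, and 56.9% of the UMIs of Klra3 were in macrophages against 29.3% in T/NK cells. Macrophages were the larger population, so these shares do not rank the levels. Cells were sorted to enrich CD45-positive immune cells before capture, so shares of UMIs here and below are of the sorted cells and not of the tumor.

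**Figure D1:**
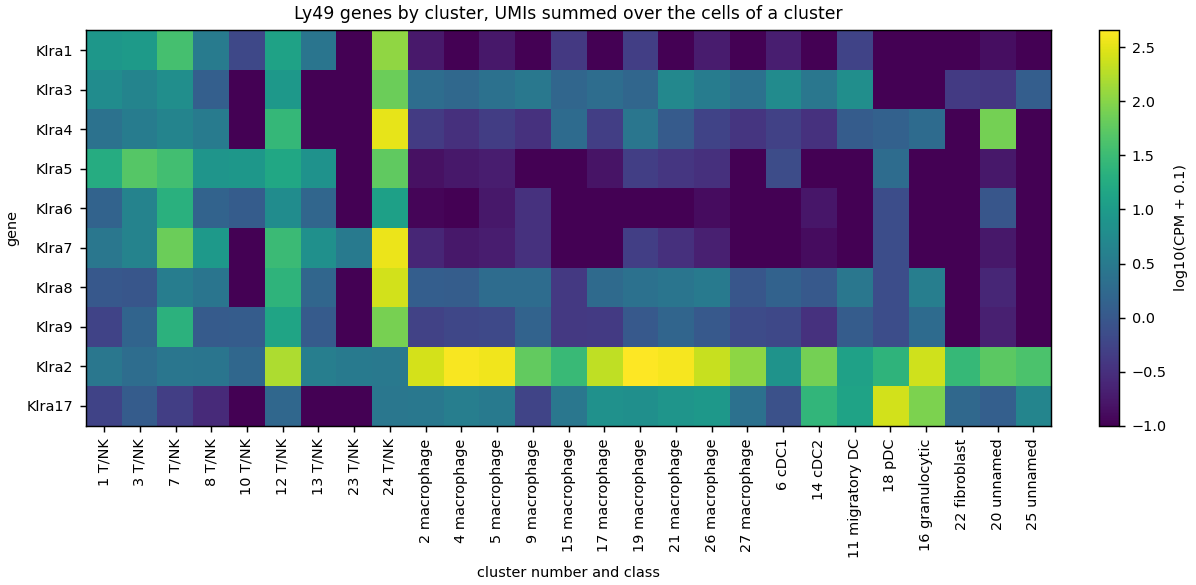
Level of each Ly49 gene (vertical axis) in each of the 27 clusters (horizontal axis, grouped by class), as log10(CPM + 0.1) of UMIs summed over all cells of a cluster. Klra7, Klra8 and Klra1 were bright in cluster 24, Klra2 across the macrophage clusters, Klra17 in the plasmacytoid dendritic cells of cluster 18 and Klra4 in clusters 24 and 20.

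In NK cells of cluster 24, UMIs of the inhibitory receptor gene Klra7 (Ly49G) stood at 360 CPM (95% Poisson interval 342 to 379) and were found in 35.0% of cells. The activating receptor genes Klra4 (Ly49D) and Klra8 (Ly49H, which binds a protein of mouse cytomegalovirus) stood at 329 CPM (311 to 347, 30.0% of cells) and 257 CPM (242 to 273, 26.7% of cells). Klra1 (Ly49A, inhibitory) stood at 112 CPM (102 to 122). For comparison, macrophages of cluster 2, with a median of 3881 UMIs per cell against 1745.5 in cluster 24, had a Klra7 UMI in 0.0527% of cells and a Klra4 UMI in 0.142%. Intervals cover counting error only.

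The remaining lymphoid members were measured in the same cells. Klra9 (Ly49I, inhibitory) stood at 80.1 CPM (71.6 to 89.2), Klra3 (Ly49C, inhibitory) at 68.8 (61.0 to 77.3), Klra5 (Ly49E, inhibitory) at 57.5 (50.4 to 65.4) and Klra6 (Ly49F, inhibitory) at 11.8 (8.67 to 15.6). Several members had UMIs beyond NK cells. Klra5 stood at 49.3 CPM (44.9 to 54.1) in cluster 3, whose cells carried Cd3e, Cd8a and Cd8b1 at 1170, 731 and 641 CPM and Ncr1 at 0.748, and Klra6 at 20.8 CPM (17.1 to 25.04) in cluster 7, which carried Cd3e at 742 CPM and Il7r at 314. In cluster 7 Klra7, Klra1, Klra5 and Klra9 stood at 68.6, 37.4, 34.9 and 22.7 CPM, each below its level in cluster 24, and Klra6 was above its own.

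Single NK cells carried differing numbers of members. Of 1614 NK cells, 536 had no UMI of the 8 lymphoid members, 414 had UMIs of 1, 319 of 2, 214 of 3, 105 of 4, 23 of 5, 2 of 6 and 1 of 7, so 41.1% carried at least 2 members. After thinning to 1000 UMIs per cell, which left out 352 shallower cells, 555 of 1262 cells had none and 219, 92 and 20 had 2, 3 and 4. In macrophages of cluster 2, 98.3% of cells had none.

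Klra2 (Ly49B, an inhibitory member of myeloid cells) stood at 260 CPM in cluster 2, 423 in cluster 4 and 222 in cluster 26, all of the macrophage class, and at 244 in the granulocytic cells of cluster 16. Over the 27 clusters, the genes whose level followed that of Klra2 most closely were Sirpb1a, Sirpb1c and Sirpb1b, with Pearson correlations of 0.981, 0.977 and 0.972 among 10945 genes. Genes nearest to Klra7 were Ncr1 (0.942), Samd3 (0.895) and Klrb1c (0.895). The clusters shared libraries and differed in depth, so these correlations are descriptions.

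Klra17 (Ly49Q), an inhibitory member known from plasmacytoid dendritic cells (pDC), stood at 255 CPM (231 to 281) in the pDC of cluster 18, where 45.4% of cells had a UMI and the pDC gene Siglech stood at 1559 CPM. It stood at 87.1 CPM in granulocytic cells, 25.1 in the conventional dendritic cells of cluster 14 (cDC2) and 2.78 in macrophages of cluster 2, where 1.17% of cells had a UMI.

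Klra4 had a separate site of expression. Cluster 20 held 2146 of its UMIs, 56.6% of all, at 79.2 CPM (75.9 to 82.7), and 26.3% of the 3411 cells of the cluster had a UMI. Cluster 20 matched none of the marker lists and is left unnamed, with Shisal2b at 97.8 CPM and the keratins Krt8 and Krt18 at 0.443 and 0.111. Shisal2b is the gene by which the study marked MC38 cells, and which cells the Klra4 UMIs came from, host or MC38, was not tested. Within it, cells with a Shisal2b UMI had Klra4 at 88.5 CPM (392 cells) and cells without at 76.6 (3019 cells), and cells with a Shisal2b UMI outside cluster 20 had it at 1.76. The 7 other Ly49 genes of lymphoid cells stood at 0.0369 (Klra1) to 0.849 CPM (Klra6) there, and the 23 UMIs of Klra6 were 8.75% of all its UMIs. By host strain, the median over tumors with at least 10 such cells was 61.2 CPM in B6, 78.8 in CC001, 85.1 in CC002, 75.5 in CC079 and 100.2 in CC080, and 34.7 in CC036, 20.04 in CC075 and 0 in CC007, with overlapping ranges. Summed over tumors, the strains lay closer together, at 54.7 CPM in CC036, 53.9 in CC075 and 62.0 in CC007 against 60.7 in B6 and 80.0 to 87.2 in the other 4. All 55 UMIs of CC007 came from 1 of 3 tumors. In the same tumors the median of Klra2, the member of myeloid cells, was 215 CPM in CC036, 386 in CC075 and 180 in CC007. It ran from 5.15 in CC001 to 32.3 in CC080 among the other strains. The make-up of cluster 20 may thus differ by strain, and its part in the Klra4 values was not tested.

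The CCF1 design asks how the host genome sets the tumor environment, and in macrophages several Ly49 genes differed between strains. Levels were summed over the macrophages of each tumor and tested across the 8 host strains with treatment in the model (edgeR quasi-likelihood test, Benjamini-Hochberg adjustment over all genes tested). Of the 10 members, 6 passed the minimum of 50 UMIs and 5 of these were called, where 42.3% of 15575 genes were called. Klra8 and Klra9 passed the minimum only through the strains in which they were high, so this count is read no further and their differences are given as sizes without p-values.

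Klra8 was present in the macrophages of 3 CCF1 strains and near 0 in the others. The lowest, median and highest levels were 1.95, 4.55 and 8.75 CPM in the 6 CC002 F1 tumors, 4.04, 5.63 and 8.10 in the 6 CC075 F1 tumors and 3.34, 5.03 and 5.57 in the 6 CC080 F1 tumors. In the other 30 tumors the level ran from 0 to 0.361 CPM, with 18 tumors at 0. All 18 tumors of the 3 strains lay above all 30 others, with no overlap.

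Against B6, where all 6 tumors together held 4 UMIs of Klra8, the log2 difference was 5.12 ± 0.47 (SE) in CC002 F1, 5.32 ± 0.46 in CC075 F1 and 4.99 ± 0.47 in CC080 F1. In these 3 contrasts 4.3%, 3.49% and 3.2% of all genes were called. As ratios of summed UMIs the 3 strains stood 39.9, 46.6 and 37.2 times above B6, with 95% counting intervals of 15.3 to 148, 17.9 to 173 and 14.3 to 138. Cells with a Klra8 UMI were 1.85%, 2.41% and 1.88% of macrophages in CC002, CC075 and CC080 F1 and 0.0498% in B6, with medians of 3374, 3578, 3363 and 2758 UMIs per cell.

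Klra9 was present in macrophages of the same 3 strains. Its lowest, median and highest levels were 0, 1.10 and 2.34 CPM in CC002 F1, 1.48, 2.56 and 4.35 in CC075 F1 and 0.639, 1.62 and 2.63 in CC080 F1. The other 30 tumors ran from 0 to 0.241 CPM with 24 at 0, and 17 of the 18 tumors of the 3 strains lay above them. The log2 differences from B6, which held 2 UMIs, were 3.98 ± 0.67, 5.02 ± 0.61 and 4.38 ± 0.63, and the ratios of summed UMIs were 19.97 (5.21 to 170), 40.9 (11.0 to 343) and 26.5 (7.06 to 223).

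Klra3 was high in CC075 and CC080 F1 but not in CC002 F1. It ran from 4.71 to 11.0 CPM in CC075 F1 (median 7.81) and from 4.39 to 15.5 in CC080 F1 (median 7.99), and from 0 to 2.19 in the other 36 tumors. All 12 tumors of the pair of strains lay above the rest. The log2 differences from B6 were 4.20 ± 0.42 and 4.36 ± 0.41 (adjusted p = 2.2e-10 and 4.7e-11). In CC002 F1 the median was 0.833 CPM and in CC007 F1 1.19, and neither differed from B6 past the threshold (log2 difference 1.46, adjusted p = 0.0975, and 1.76, adjusted p = 0.245). Klra10, the row outside the 10 members, had 109 UMIs in macrophages of CC075 F1 and 155 in those of CC080 F1, 9 in CC002 F1 and 0 in B6.

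**Figure D2:**
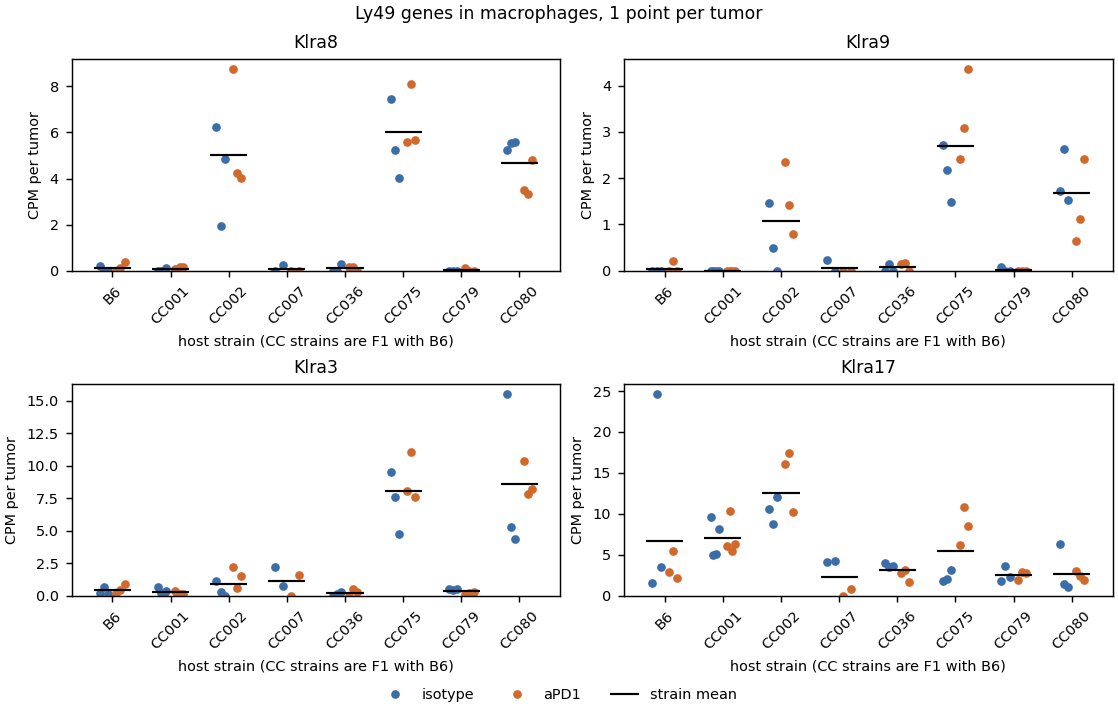
CPM of Klra8, Klra9, Klra3 and Klra17 in the macrophages of each tumor (vertical axes) by host strain (horizontal axes), with isotype tumors in blue, aPD1 tumors in orange and a black line at the strain mean. Klra8 stood at 1.95 CPM or more in all 18 tumors of CC002, CC075 and CC080 F1 and at 0.361 or less in all others, and Klra3 at 4.39 or more in CC075 and CC080 F1.

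B6 tumors shared pools only with CC007 and CC036 F1, so a fit with pool as a block compares most strains with B6 only through other strains. In that fit the log2 differences in CC002, CC075 and CC080 F1 stood at 5.89, 5.17 and 5.27 for Klra8. For Klra9 they moved to 7.46, 7.48 and 6.995. Those of Klra3 in CC075 and CC080 F1 at 0.01 and 0.06 were no longer called (adjusted p = 1.0 and 1.0). The test across all strains stayed past the threshold with the pool block for Klra2, Klra3 and Klra17 (adjusted p = 5.6e-04, 4.4e-12 and 0.0055), which passed the minimum without the strains in which they were highest. Tumors of 1 library are given as values. Klra3 stood at 5.26 and 7.78 CPM in the CC080 F1 and at 0 and 0.162 in the CC001 F1 tumors of pool 4, and at 8.01 and 9.48 in the CC075 F1 and 0.153 and 0.529 in the CC036 F1 tumors of pool 9. Klra9 overlapped in pool 12, at 0 and 0.790 CPM in CC002 F1 against 0 and 0 in CC001 F1. In pool 4 both CC080 F1 tumors had Klra8 at 3.34 and 5.55 CPM and both CC001 F1 tumors at 0 and 0.162.

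Other NK cell transcripts in macrophages were measured beside these genes. Klra7 had 3 to 7 UMIs in the macrophages of every strain. The summed level of 8 NK markers, none of which was at 0 in any strain, ran from 0 to 23.8 CPM in the tumors of CC002, CC075 and CC080 F1 (strain medians 3.22 to 8.03) and from 1.98 to 21.5 in the tumors of the other 5 strains (strain medians 4.09 to 10.15).

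The macrophage clusters differed in where the UMIs lay. In CC002 F1, 139 of the 176 macrophage UMIs of Klra8 were in cluster 26, at 12.1 CPM (10.2 to 14.3) against 0.335 in cluster 2. In CC075 F1 the levels were 8.32 CPM in cluster 26, 3.89 in cluster 2 and 6.36 in cluster 5, and in CC080 F1 they were 4.75, 4.00 and 5.63. Dendritic cells showed part of the same strain pattern. Summed over conventional and migratory dendritic cells, Klra8 stood at 4.76 CPM in CC075 F1, 3.19 in CC080 F1, 0.504 in CC002 F1 and 1.49 in B6, where all 8 UMIs came from 1 tumor and the other 5 tumors were at 0. Klra3 stood at 7.61 in CC075 F1, 8.59 in CC080 F1, 10.4 in CC007 F1 and 2.24 in B6.

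In cDC2 cells of cluster 14, Klra3 passed the minimum of UMIs only through CC075, CC080 and CC007 F1, so its values are given without a test. It ran from 0 to 10.9 CPM in CC075 F1 (median 6.21), from 0 to 15.6 in CC080 F1 (median 5.50) and from 7.65 to 9.09 in the 3 CC007 F1 tumors with enough cells, against 0 to 4.47 in B6 (median 1.48). The ranges of CC075 and CC080 F1 overlapped that of B6, and that of CC007 F1 lay above it. Klra2 differed across strains there, in 47 tumors, where 9.08% of 11232 genes did (adjusted p = 0.015, and 0.0703 and 0.109 without pools 8 and 9), with strain medians from 42.2 CPM in CC002 F1 to 125 in CC075 F1 against 103 in B6.

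Klra2 was present in macrophages of every strain. Strain medians were 324 CPM in B6, 231 in CC001, 235 in CC002, 286 in CC007, 336 in CC075, 298 in CC079 and 294 in CC080 F1, and CC036 F1 was lowest with 142, 175 and 226 CPM as lowest, median and highest. CC036 F1 lay below the B6 range of 244 to 462 CPM, with a log2 difference of -0.93 ± 0.18 (adjusted p = 4.6e-04, in a contrast that called 4.9% of all genes), which with the pool block was -0.79 (adjusted p = 0.413). Klra4 was at 0.121 to 0.643 CPM in macrophages as strain medians and did not differ between strains (adjusted p = 0.860).

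Klra17 was highest in macrophages of CC002 F1, at 8.78, 11.4 and 17.5 CPM as lowest, median and highest, followed by CC001 F1 at 4.94, 6.20 and 10.4. In CC036, CC079, CC080 and CC007 F1 the medians were 3.35, 2.57, 2.19 and 2.45, and in B6 the median was 3.16 with 1 tumor at 24.6. CC075 F1 ran from 1.81 to 10.8 with a median of 4.62. Its 3 isotype tumors lay at 1.81 to 3.10 and its 3 aPD1 tumors at 6.14 to 10.8, a difference that was not tested by strain. The aPD1 difference of Klra17 between response classes was not called (log2 1.03, adjusted p = 0.94).

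By response class, Klra17 was higher in macrophages of responder strains. The 20 responder tumors had 1.81, 8.29 and 17.5 CPM as lowest, median and highest and the 18 non-responder tumors 1.01, 2.79 and 6.35, with overlap. The log2 difference was 1.53 ± 0.24 (adjusted p = 3.7e-05), where 5.88% of 15199 genes were called, and it was the only one of 6 tested members past the threshold. Each class held 3 strains and tumors of a strain are not independent samples of a class. A fit of tumors summed per strain and treatment was not run in macrophages. The pDC marker list in macrophages summed to strain medians of 346 CPM in CC036 F1, a non-responder strain, to 618 in CC001 F1, a responder strain, with CC002 F1 at 423. The cDC2 list ran from 9.38 in CC007 F1 to 39.9 in CC036 F1, with CC002 F1 at 9.78. Of the 4 pDC genes, 1 was at 0 in macrophages of CC001 F1 and B6, and 2 in those of CC007 F1. The pDC list also summed to strain medians of 68.1 CPM (CC007 F1) to 154.5 (CC079 F1) in cluster 3, so it does not count pDC alone. The part of both lists in the Klra17 level was not tested.

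In cDC2 cells Klra17 stood higher in CC002 F1 (44.1, 57 and 86.3 CPM as lowest, median and highest) and CC001 F1 (15.1, 47.3 and 89.1) than in B6 (0, 5.94 and 23.8). CC036 and CC080 F1 lay between, with medians of 24.8 and 25.4 CPM, and CC079, CC075 and CC007 F1 had medians of 9.33, 6.34 and 6.49. All 6 CC002 F1 tumors lay above the B6 range, and the ranges of CC001 F1 and B6 overlapped. The log2 difference from B6 was 2.83 ± 0.43 in CC002 F1 (adjusted p = 5.5e-05) and 2.62 ± 0.42 in CC001 F1 (adjusted p = 1.8e-04), in contrasts that called 0.472% and 0.988% of all genes. With the pool block these differences were -0.04 and -0.35 (adjusted p = 1.0 for both), while the test across all strains stayed past the threshold.

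Values of Klra17 in pDC are given without an order of strains. Tumors with at least 10 pDC had Klra17 at 255, 514 and 528 CPM in CC036 F1, 237, 363 and 368 in CC001 F1, 145 to 233 in the 4 tumors of CC075 F1, 114 to 152 in the 4 of CC080 F1 and 172 and 196 in B6. No CC002 F1 tumor had 10 pDC, and pDC were too few for a test.

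In NK cells of cluster 24, 38 tumors had at least 10 cells and 7 members passed the minimum of UMIs. Of these, 2 differed between strains, where 3.42% of 7170 genes did. Klra1 stood at 74.5, 210 and 313 CPM as lowest, median and highest in the 6 CC002 F1 tumors and at 143, 201, 232 and 234 in the 4 CC036 F1 tumors. It was lowest in CC075 F1, with 3 of 5 tumors at 0 and the others at 26.8 and 35.0. Of these 5 tumors, 4 had only 11 to 20 NK cells and the tumor at 26.8 had 131. The remaining strains had medians of 85.2 (CC001), 81.1 (CC079), 77.2 (CC080), 66.4 (B6) and 49.4 (CC007), and the highest tumors of CC001 and CC079 F1 reached 276 and 264. Across strains the largest log2 difference was 3.67 (adjusted p = 3.0e-04).

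Klra5 in NK cells was lowest in CC075 F1 as well, with 1 UMI in 198 cells. Its 5 tumors ran from 0 to 4.47 CPM, with 4 at 0. CC002 F1 ran from 0 to 308 (median 166), CC001 F1 from 0 to 298 (median 118) and CC079 F1 from 8.87 to 166 (median 115), while medians in CC007 F1, B6, CC080 and CC036 F1 were 64.6, 39.8, 19.7 and 9.56. CC079 F1 lay above CC075 F1 in every tumor, and each other strain had a tumor at 0. The largest log2 difference was 5.59 (adjusted p = 0.017), and with the pool block the adjusted p was 1.0.

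**Figure D3:**
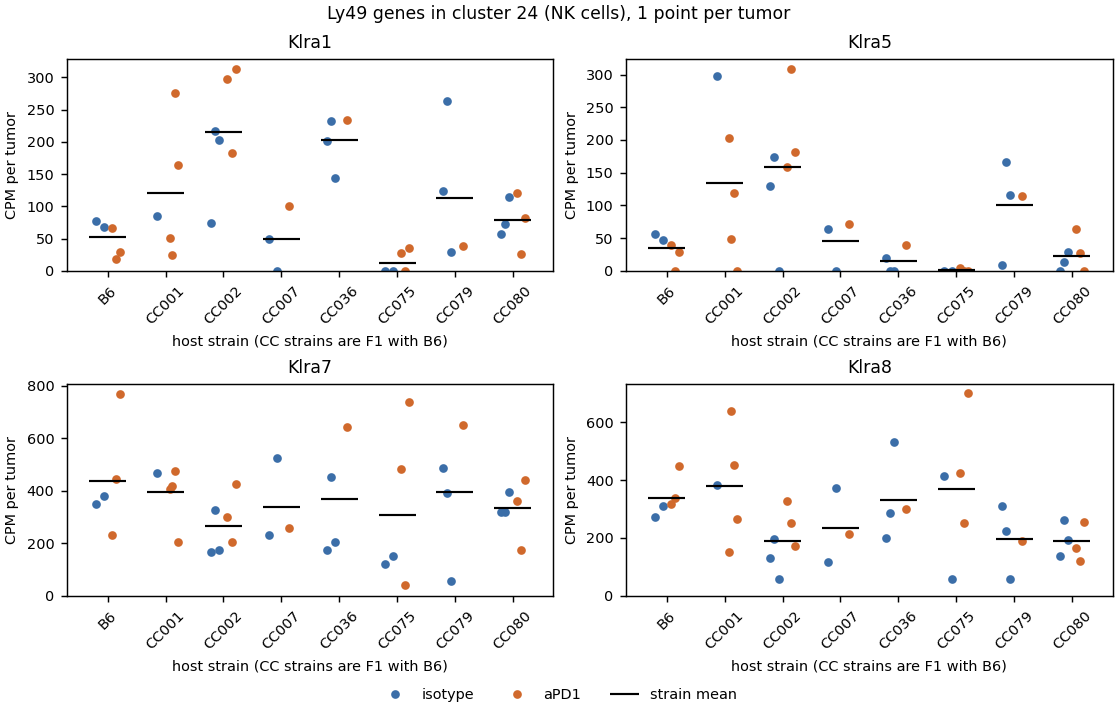
CPM of Klra1, Klra5, Klra7 and Klra8 in the NK cells of cluster 24 (vertical axes) for each tumor with at least 10 such cells, by host strain (horizontal axes), isotype in blue, aPD1 in orange and strain means as black lines. Klra1 had medians of 210 CPM in CC002 and 216 in CC036 F1 and 0 in CC075 F1, the Klra7 ranges of all strains overlapped, and Klra8 in B6 (271 to 450) lay above CC080 F1 (120 to 260).

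The other 5 members tested in NK cells did not pass the threshold across strains. Klra7 had strain medians from 150 CPM in CC075 F1 to 439 in CC079 F1 (adjusted p = 0.95), and Klra8 from 179 in CC080 F1 to 416 in CC075 F1 (adjusted p = 0.63). Klra4 had its highest median, 639, in CC075 F1 and its lowest, 186, in CC007 F1 (adjusted p = 0.52), and Klra9 (adjusted p = 0.30) and Klra3 (adjusted p = 0.82, and 1.3e-05 with the pool block) ranged from 38.6 to 126 and from 20.5 to 92.9. By edgeR's quasi-likelihood test none of 49 differences of a member from B6 was called in these cells, with 9 at an unadjusted p below 0.05, and DESeq2 called 1. On simulated counts the fit of these cells recovered only 37.5% of 200 genes changed in CC001 F1 against B6. CC002 and CC080 F1, whose macrophages held Klra8, had the lowest medians of Klra8 in NK cells, 184 and 179 CPM. CC075 F1, whose macrophages held it too, had the highest median, but most of its tumors had only 11 to 20 NK cells. In the fit the log2 difference of CC075 F1 from B6 was -0.28 ± 0.35 (adjusted p = 0.86), so the fit did not place it above B6. Every B6 tumor, at 271 to 450, lay above every CC080 F1 tumor, at 120 to 260, with a log2 difference of CC080 F1 from B6 of -0.68 ± 0.32 that was not called (adjusted p = 0.87).

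Cluster 3, CD8 T cells by Cd3e, Cd8a and Cd8b1, had Ly49 members that differed by strain. In 40 tumors with at least 10 cells, Klra5 and Klra1 passed the minimum of UMIs. Klra5 differed across strains (adjusted p = 6.5e-05), where 7.01% of 9096 genes did. Klra1 passed the minimum only through CC002 F1, which held 78 of its 91 UMIs, so its difference is given as a size without a p-value. Klra5 ran from 59.3 to 266 CPM in the 8 CC001 F1 tumors (median 133) and from 0 to 187 in the other 32 (median 6.89), of which 5 reached the lowest CC001 F1 value. In B6 it ran from 0 to 79.4 with a median of 5.38. The log2 difference of CC001 F1 from B6 was 3.27 ± 0.62 (adjusted p = 0.0056, where 0.715% of genes were called), and the summed UMIs gave a ratio of 9.60 (6.16 to 15.8). With the pool block it was 4.40 (adjusted p = 0.0574).

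Klra1 in CD8 T cells was highest in CC002 F1. It ran from 14.3 to 66.0 CPM in the 6 CC002 F1 tumors (median 32.3) and from 0 to 15.7 in the other 34, with 27 of them at 0. Of the 6, 5 lay above all others. The log2 difference from B6 was 3.32 ± 0.63, in a contrast that called 0.231% of all genes, and the ratio of summed UMIs was 11.6 (4.34 to 43.5), and with the pool block the log2 difference was 5.70.

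A pair of members below the minimum of UMIs are given as values. Klra4 was present in all 6 CC002 F1 tumors at 5.71 to 27.2 CPM (median 11.1) and at 0 in 33 of the other 34. Klra6 was present in all 8 CC001 F1 tumors at 7.40 to 27.03 CPM (median 11.9) and in 4 of 6 CC036 F1 tumors, and reached 4.19 at most elsewhere. The summed NK marker list in cluster 3 had a median of 509.5 CPM in CC002 F1, the lowest of the strains, 723 in CC001 F1, 762 in B6 and 1392 in CC036 F1, the highest, where it reached 3030. Little of this sum came from Ncr1, which stood far lower in cluster 3 than in NK cells, as given above. The list therefore does not count NK cells alone there, and its part in these values was not tested.

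**Figure D4:**
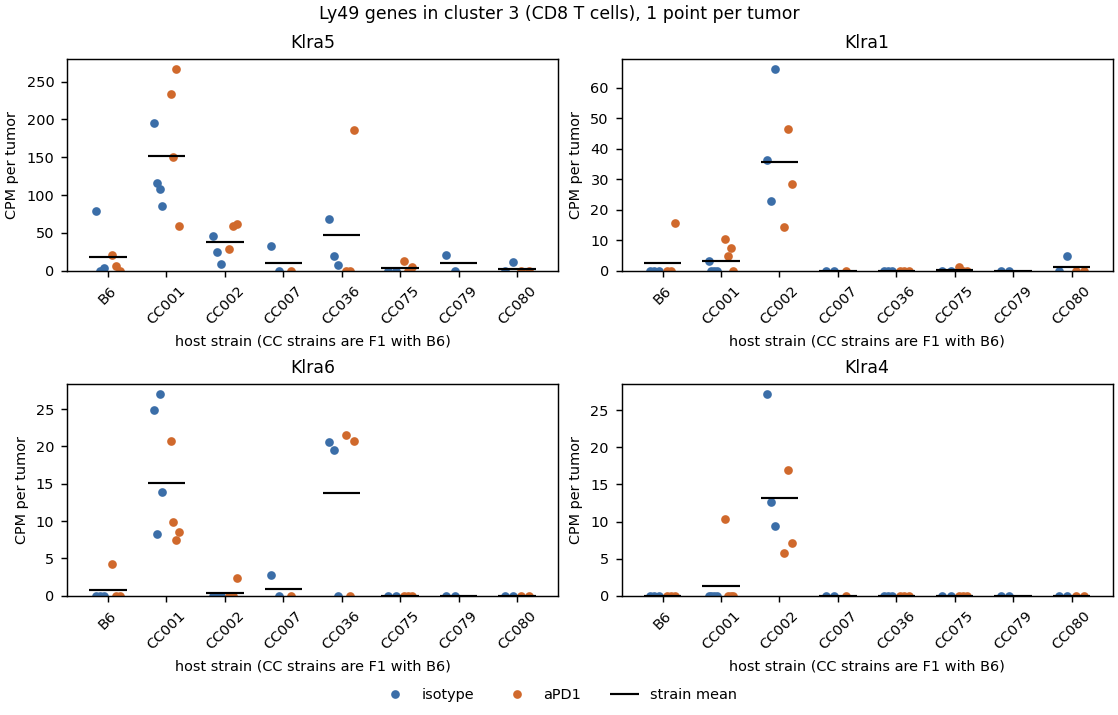
CPM of Klra5, Klra1, Klra6 and Klra4 in the CD8 T cells of cluster 3 (vertical axes) for each tumor with at least 10 such cells, by host strain (horizontal axes), isotype in blue, aPD1 in orange and strain means as black lines. Klra5 stood at 59.3 CPM or more in all CC001 F1 tumors, and Klra1 and Klra4 at 14.3 and 5.71 or more in all CC002 F1 tumors.

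Summed over all T/NK cells of a tumor, 9 members passed the minimum of UMIs and 7 differed between strains in 47 tumors, where 18.6% of 11916 genes did. Klra5 had the lowest adjusted p, 1.5e-05, and was the only member kept with pool as a block (adjusted p = 0.0328). It ran from 24.9 to 153 CPM in CC001 F1 (median 75.8), 0 to 29.1 in B6 (median 11.9) and 0 to 7.98 in CC075 F1 (median 6.32). All CC001 F1 tumors lay above all CC075 F1 tumors, while the ranges of CC001 F1 and B6 overlapped. The log2 difference of CC001 F1 from B6 was 2.40 ± 0.46 (adjusted p = 0.0028, where 1.82% of genes were called) and 3.72 with the pool block (adjusted p = 1.0). Klra9 was the other member called against B6, at -1.77 ± 0.49 in CC001 F1 (adjusted p = 0.045), with medians of 5.40 CPM in CC001 F1 and 16.8 in B6 and overlapping ranges, and it lost the call in 11 of 21 alternatives. NK cells were 7.17% of T/NK cells in CC001 F1 and 16.3% in B6, and without cluster 24 the difference was -1.20 (adjusted p = 0.455), while that of Klra5 was 2.78 (adjusted p = 7.9e-04). Over all strains the NK share ran from the 7.17% of CC001 F1 to 18.6% in CC080 F1.

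The other 6 were Klra4 (adjusted p = 0.0099), Klra2 (0.010), Klra9 (0.014), Klra1 (0.024), Klra6 (0.034) and Klra7 (0.045), and their adjusted p with the pool block ran from 0.0535 to 0.306. Most Klra2 UMIs of T/NK cells, 415 of 491, came from cluster 12, which carried macrophage as well as T/NK markers, and without it the adjusted p of Klra2 was 0.675. Klra8 (0.11) and Klra3 (0.15) did not pass.

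Between response classes, the lymphoid members Klra7, Klra8 and Klra9 were lower in T/NK cells of responder strains. The lowest, median and highest levels in 20 responder and 18 non-responder tumors were 8.77, 27.4 and 90.3 CPM against 0, 51.9 and 192 for Klra7. They were 0, 15.3 and 44.3 against 0, 43.8 and 83.6 for Klra8, and 0, 6.70 and 54.2 against 0, 16.5 and 45.03 for Klra9. The classes overlapped for each gene.

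The log2 differences were -1.34 ± 0.33 (Klra7, adjusted p = 0.023), -1.20 ± 0.30 (Klra8, adjusted p = 0.026) and -1.14 ± 0.32 (Klra9, adjusted p = 0.047), where 1.96% of 11482 genes were called. When tumors were summed per strain and treatment none of the 3 passed (adjusted p = 0.0608, 0.0577 and 0.287). The share of NK cells among T/NK cells moved with them, at 3.81, 7.66 and 22.99% in responder and 3.45, 15.2 and 30.6% in non-responder tumors as lowest, median and highest. In cluster 24 alone the log2 differences were -0.48, 0.06 and -0.12 (adjusted p = 0.633, 0.985 and 0.969). Without cluster 24, 1 member was called, Klra8, while Klra7 and Klra9 stood at -0.76 and -1.01 (adjusted p = 0.43 and 0.21). Over all alternatives the log2 difference of Klra8 ran from -1.81 to 0.06.

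**Figure D5:**
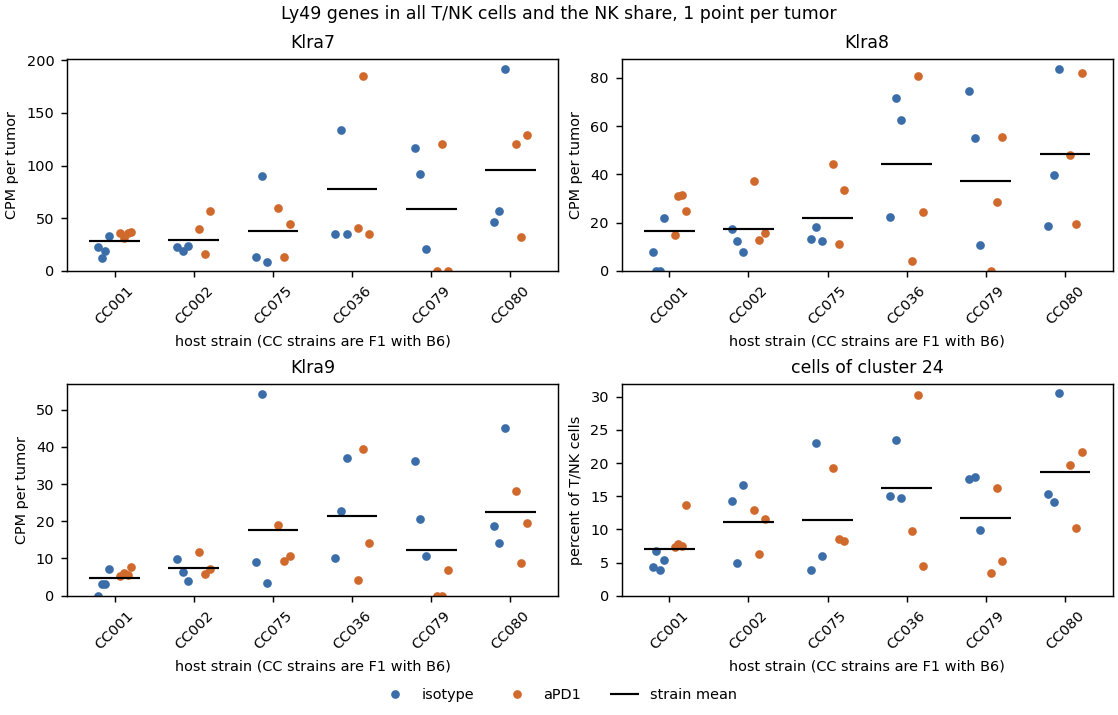
CPM of Klra7, Klra8 and Klra9 in all T/NK cells of each tumor, and the percent of T/NK cells in cluster 24 (vertical axes), by host strain (horizontal axes) with responder strains CC001, CC002 and CC075 F1 on the left and non-responder strains on the right, isotype in blue, aPD1 in orange and strain means as black lines. Medians of the NK share were 7.66% in responder and 15.2% in non-responder tumors, and all 4 measures overlapped between the classes.

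Treatment with aPD1 48 h earlier left no Ly49 gene called. By edgeR's quasi-likelihood test no gene at all was called for aPD1 against isotype (0.0% of genes) in T/NK cells, macrophages, NK cells, CD8 T cells or cDC2, with 466, 492, 162, 318 and 375 genes at an unadjusted p below 0.05, and DESeq2 also called 0 in T/NK cells and macrophages. These counts over all genes come from fits that did not pair the tumors of the same pool and strain. With such pairs as a block, run in T/NK cells and macrophages, no member was called. The log2 differences of members ran from -0.32 (Klra4) to 0.27 (Klra8) in T/NK cells, from -0.41 (Klra4) to 0.26 (Klra9) in macrophages and from -0.21 (Klra4) to 0.41 (Klra7, SE 0.25) in NK cells. No gene had an aPD1 difference that differed between response classes (0 called, with 410 in T/NK cells and 786 in macrophages at an unadjusted p below 0.05). Isotype and aPD1 tumors never carried the same hashtag, so hashtag and treatment cannot be told apart.

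Genes that work with the Ly49 receptors were followed as 4 lists. Across strains in macrophages, 5 of 10 tested genes of the other lectin-like receptors were called, 6 of 10 adaptors and phosphatases, 3 of 8 NK cell factors and cytokine receptors and all 3 class I ligand genes (B2m, H2-D1 and H2-K1), against 42.3% of all genes. In the contrasts of CC002, CC075 and CC080 F1 with B6, which called 3.2 to 4.3% of genes, none of the 10 lectin-like receptors and none of the 8 NK cell factors was called. Lat2, an adaptor, fell by 0.73 on the log2 scale in CC075 F1 (adjusted p = 0.0011). Hcst (DAP10) fell by 0.49 and H2-D1 by 0.47 in CC080 F1 (adjusted p = 0.013 and 0.025). These contrasts are given without the pool block, with which the calls of members against B6 in macrophages fell from 9 to 0. Lower expression and poorer alignment of reads of the CC copy to the B6 genome cannot be told apart for these genes either.

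Across strains in T/NK cells the counts were 11 of 14 lectin-like receptors, 6 of 10 adaptors and phosphatases, 4 of 10 NK cell factors and 2 of 3 class I ligands, against 18.6%. In NK cells 4 of 13 lectin-like receptors were called (Klrb1a, Klrb1c, Klrd1 and Klri1) and none of the other 3 lists, against 3.42% of all genes. Between response classes in T/NK cells, Ncr1, Tyrobp and Klrb1f were lower in responder strains, with log2 differences of -1.13, -0.84 and -1.17 (adjusted p = 0.033, 0.023 and 0.0054), where 1.96% of all genes were called and the NK share had medians of 7.66% against 15.2%. Klrc1 (NKG2A), its partner Klrd1 (CD94) and Klrk1 (NKG2D) were higher, at 0.97, 0.82 and 0.56 (adjusted p = 2.2e-04, 0.0050 and 0.026). When tumors were summed per strain and treatment none of these 6 genes passed (adjusted p = 0.0504 for Klrc1 to 0.218 for Klrk1), and none did in cluster 24 alone. Without cluster 24 all but Tyrobp (adjusted p = 0.134) passed, in the same direction. Tyrobp did not pass without cluster 12 (adjusted p = 0.0571), nor Klrk1 without the 2 CC080 F1 tumors that shared an identifier (adjusted p = 0.0540).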

How the data were processed

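Female B6 and CCF1 mice bearing MC38 tumors were profiled by 10x 5′ single-cell RNA-seq in 12 pools of 4 hashtagged tumors. Per the labels and methods, the authors processed reads with Cell Ranger on GRCm38 (mm10), removed cells with high mitochondrial or ribosomal shares, and corrected for batch date with harmony and clustered with Seurat 5.0.1. The deposited UMI counts per gene and cell, with the authors' clusters and tumor assignments, were used as given. The authors had sorted cells of frozen and digested tumors to enrich CD45-positive cells before capture. Doublet calls and the CC haplotypes at the Ly49 locus were not analysed here. Strain, treatment and pool came from the labels and the cell annotation. One identifier stood on 2 CC080 F1 tumors.

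Counts were summed per tumor and cell class (at least 20 T/NK cells or macrophages, or 10 cells in cluster 24, 3 or 14), and genes with at least 50 UMIs in all were tested with edgeR 4.0.16 (quasi-likelihood, R 4.3.3, TMM, strain and treatment as terms, Benjamini-Hochberg adjusted p below 0.05). The CC007 F1 aPD1 tumor of pool 6 was left out of T/NK fits (53 cells). Alternatives were DESeq2 1.42.0, other scalings and filters, pool as a block, and each pool left out. For treatment in T/NK cells and macrophages, pairs of tumors of the same pool and strain were also used as a block. Without a block, p-values measure the spread between tumors taken as independent, and those of response classes do not measure the spread between strains. The steps were tested on simulated counts with 200 genes changed in CC001 F1 against B6. They recovered 66.5% of these in T/NK cells, 78% in macrophages, 37.5% in cluster 24, 65% in cluster 3 and 70% in cluster 14. False calls were 2.2%, 3.7%, 8.5%, 5.1% and 4.8% of all calls in the same order. The simulated tumors were drawn independently, without a pool effect, so these rates do not cover the likeness of tumors of 1 pool. The members, gene lists, markers and tests were chosen with earlier results of these data known. Named genes were the 10 members, listed genes past the threshold, and the genes nearest in level over clusters. The fits in clusters 3 and 14 and the contrasts in cluster 24 were added after seeing the data.

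A pool is a shared library by the labels. Deviations of same-pool tumors from their group means correlated at 0.150 on average in T/NK cells (66 pairs, other pairs -0.0107) and 0.250 in macrophages (72 pairs, other pairs -0.0175). For pairs of the same pool and strain the medians were 0.184 and 0.297. The fits without a block took tumors as independent, so their p-values for strains and classes can be too small.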

Additional observations from a re-analysis of the deposited data

Results flagged for a closer look

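Chance alone marks about 1 in 20 groups with a sample this far from the rest, and 5 of 88 groups of 4 to 8 tumors were marked. Klra17 in macrophages was 24.6 CPM in the B6 isotype tumor of pool 7 (39 UMIs, 261 macrophages) and 1.59 to 5.49 CPM in the other 5 B6 tumors. Klra4 in NK cells was 501 CPM in the B6 isotype tumor of pool 8 (95 UMIs, 83 cells), against 163.5 to 261.3 in the other 4. Klra7 in NK cells was 205.1 CPM in the CC001 F1 aPD1 tumor of pool 12 (10 UMIs, 20 cells), below the 405.6 to 473.0 of the other 4. Klra5 in CD8 T cells was 79.4 CPM in the B6 isotype tumor of pool 6 (13 UMIs, 62 cells), against 0 to 20.95 in the other 5. Klra5 in CD8 T cells was 186.6 CPM in the CC036 F1 aPD1 tumor of pool 10 (9 UMIs, 18 cells), against 0 to 68.6 in the other 5.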

How the results depend on the processing

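Of the recomputed counts of called members, 338 stayed near the reported count and 50 moved by over 1.5 times. Of the recomputed single values, 995 kept direction and side of the threshold, 90 lost the call and 15 changed sign. The cause of these changes was not tested, and UMI counts in small tumors limit every value.

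With pool as a block (the replicate block), members called across strains in T/NK cells fell from 7 to 1, members called against B6 fell from 2 to 0 in T/NK cells, 9 to 0 in macrophages (of 42 tests), 2 to 0 in cluster 3 and 2 to 0 in cluster 14, Klra3 in CC002 F1 minus B6 in macrophages became -3.16 and Klra17 in cluster 14 became -0.35 (CC001 F1) and -0.039 (CC002 F1). Of these, 6 in macrophages (Klra8 and Klra9) and 1 in cluster 3 (Klra1) were of members that passed the minimum only through strains in which they were high, and nothing is read from them. In cluster 24 the count across strains stayed at 2, with Klra5 lost (adjusted p = 1.0) and Klra3 gained (adjusted p = 1.3e-05). Blocking changed no other count of called members by over 1.5 times. With DESeq2, members called against B6 were 1 in T/NK cells, 1 in cluster 24 (reported 0), 1 in cluster 3 and 4 in cluster 14. With a minimum of 10 UMIs they were 1 in T/NK cells, 2 in cluster 24 and 5 in cluster 3. Across strains that minimum gave 4 in cluster 24 and 5 in cluster 3. It can let in members only through the strains in which they were high. In cluster 3, Klra4 had 29 UMIs in CC002 F1, 2 in CC001 F1 and none elsewhere. Nothing is read from the counts at this minimum, nor from calls of Klra1 in cluster 3 or Klra3 in cluster 14 under any setting. In cluster 24, members called against B6 were 1 with DESeq2's size factors in edgeR, 2 with library size alone and 1 with edgeR's own expression filter. Without cluster 24 or without cluster 12 the T/NK count against B6 was 1. The class count in T/NK cells (reported 3) was 0 summed per strain and treatment, 1 without cluster 24 and 0 in cluster 24 alone, where Klra8 was 0.0579.

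Leaving out each pool in turn gave 3 to 7 members across strains in T/NK cells, 1 to 2 in cluster 24, 1 to 2 in cluster 3 and 2 to 3 in cluster 14, 0 to 2 against B6 in T/NK cells, 9 to 13 in macrophages, 0 to 2 in cluster 24, 1 to 2 in cluster 3 and 2 to 5 in cluster 14, and 0 to 3 between classes in T/NK cells. These counts can include calls of Klra8 and Klra9 in macrophages, Klra1 in cluster 3 and Klra3 in cluster 14, from which nothing is read. The T/NK strain count was 3 without pool 1 and 4 without pools 3, 11 or 12. Klra5 in CC001 F1 minus B6 lost its call without pool 8 in T/NK cells (adjusted p = 0.071) and without pools 1 or 8 in cluster 3 (adjusted p = 0.0508 and 0.452), and Klra5 across strains in cluster 24 without pools 4, 5, 9 or 10 (adjusted p = 0.0539, 0.0999, 0.169 and 0.0502). Between classes no member was called without pools 9 or 11 (Klra7 at adjusted p = 0.0901 and 0.117). The strain calls of Klra2, Klra3 and Klra17 in macrophages and the class call of Klra17 there were kept under every alternative run. Summing tumors per strain and treatment, which ended the class calls in T/NK cells, was not run in macrophages.

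The other changes of sign were in uncalled values. The aPD1-by-class difference of Klra6 in T/NK cells was 0.13 and 0.35 without pools 1 and 3 (from -0.91 to 0.35 over the pools left out) and that of Klra8 was -0.23 without cluster 24. The aPD1 difference of Klra9 in macrophages ran from -0.0212 without pool 11 to 0.44. In cluster 14 that of Klra3 was 0.15 with the pool block, 0.22 without the CC080 F1 tumors that shared an identifier, and -0.33 to 0.19 over the pools left out (positive without pools 3, 8 and 10), and that of Klra2 ran from -0.034 without pool 2 to 0.11 (also below 0 without pool 10).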
